A study of Mus musculus with 8 samples.

Results

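Proliferating alveolar macrophages are the alveolar macrophages of these lung tumours that were caught in the cell cycle. They were chosen by their measured RNA, cell by cell, from unique molecular identifiers (UMIs, tags that count captured RNA molecules). Kept cells had 500 or more UMIs and 250 or more genes, and no more than 15% of their UMIs came from mitochondrial genes. It counted as an alveolar macrophage when at least 4 of the 7 genes Chil3, Ear2, Fabp1, Krt79, Plet1, Car4 and Ltc4s were detected, when their sum was at least 10 UMIs and above the sum of C1qa, C1qb and C1qc, and when Krt7, Krt8 and Krt18 together had at most 3 UMIs. It counted as proliferating when at least 3 of the 5 genes Mki67, Top2a, Birc5, Pclaf and Cdk1 were detected. This left 1126 proliferating cells of 7339 alveolar macrophages (15.3%) and of 24838 kept cells (4.53%).

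The samples were the largest tumours of KPC mice, a mouse model of lung adenocarcinoma started by lentivirus given through the trachea, and were taken 16 weeks after tumour initiation. In the mA1 group CRISPR activation in the tumour cells was aimed at Malat1, a long noncoding RNA, with dead guide RNAs (dRNAs), and in the Con group at Tomato; the activation was meant for tumour cells, and was in place from tumour initiation. Each group had 4 tumours in 2 libraries of 10x 3' version 3 chemistry, and the cells of a library with exactly 1 of its 2 hashtags (barcoded antibodies to CD45 and MHC class I) were read as a tumour. Dissociation with collagenase IV and DNase at 37°C and removal of dead cells were common to both groups, the tumours had been picked as the largest, and whether the hashtags of a library mark separate mice is not given in the sources used here, so the spread between samples may be partly technical.

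Alveolar macrophages live in the air spaces of the lung, where they clear surfactant and inhaled particles. They are seeded before birth and maintain themselves by dividing locally, under granulocyte-macrophage colony-stimulating factor (GM-CSF) and TGF-beta, with little input from blood monocytes. A dividing cell copies its DNA in S phase, with origin licensing factors, polymerases and nucleotide-making enzymes, and then in G2 and M phases makes the kinases, kinesins and kinetochore proteins that part the chromosomes.

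The mA1 libraries held 440 and 213 proliferating cells, and the Con libraries 307 and 166. Of the 1126 cells, 720 had all 5 cell cycle genes, 215 had 4 and 191 had 3, while just outside the rule 324 alveolar macrophages had 2, and 1236 and 4653 had 1 and 0. The cells at 3 genes had a median of 16137 UMIs and those just outside, at 2 genes, 16273.5. The cells with all 5 genes had 23564.5 UMIs and those with none 13110. Over all members the median was 20490.5 UMIs and 4502.5 genes, against 13908 UMIs and 3425 genes in the other alveolar macrophages. Of 1777 neutrophils, 1 had at least 3 of the 5 genes (0.0563%, 95% exact binomial interval 0.00142% to 0.313%, counting error only). Their median was 1634 UMIs. These neutrophils were chosen with fewer than 10 UMIs summed over the alveolar macrophage genes of the rule. That choice left out beforehand neutrophils with more RNA of alveolar macrophages, so the share sets no bound on free RNA. Both hashtags were carried by 73 members (6.48%), against 5.30% of the other alveolar macrophages, and 10 members were called doublets by Scrublet.

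Across those classes the cell cycle lists were higher in steps, although none of the 5 genes is on them. The levels are in CPM, the UMIs of a gene or list divided by all gene UMIs of the sample and put on the usual CPM scale; UMIs of 3' libraries are not scaled by gene length, so levels are compared within a gene or a list and not between genes. The summed level of 43 S phase genes was 598, 757 and 1235 CPM in alveolar macrophages with 0, 1 and 2 of the 5 genes, and 1958, 2795 and 4060 CPM in those with 3, 4 and 5. The summed level of 47 G2/M genes was 917, 1022 and 1453 CPM below the border and 3044, 4451 and 8431 CPM above it. A list of alveolar macrophage identity genes went the other way at the border, with 14853, 14834 and 14023 CPM at 3, 4 and 5 genes, against 17275, 17682 and 17641 CPM at 0, 1 and 2 genes. These values describe the rule's own contrast and were not tested.

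**Figure D1:**
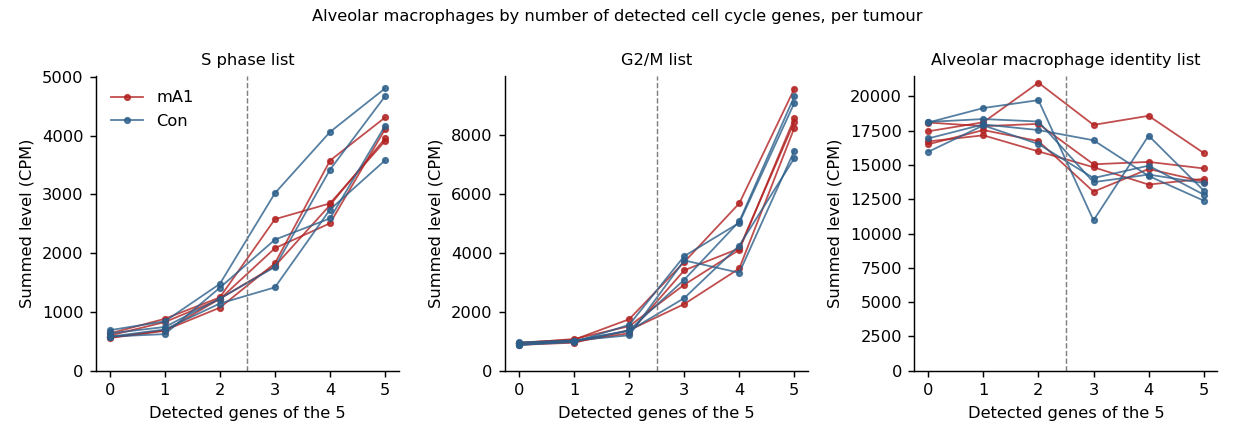
Summed CPM (y axes) of the S phase, G2/M and identity lists against the number of the 5 cell cycle genes detected (x axes), 1 line per tumour, mA1 red and Con blue, with the dashed line at the border of the rule. In all 8 tumours both cycle lists are highest at 5 genes, and the identity list is lower at 5 genes than at 0.

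The genes of the rule, whose presence in members the choice itself fixed, set the levels. In the 4 mA1 and 4 Con tumours the members had 492 to 647 CPM of Mki67, 500 to 592 of Top2a, 276 to 392 of Birc5, 533 to 652 of Pclaf and 146 to 231 of Cdk1, while Chil3, the chitinase-like secreted protein of alveolar macrophages, stood at 7679 to 13277 CPM. The label was checked on markers outside the rule, which were present in every tumour. Pparg, the lineage's master transcription factor, averaged 104 ± 11.8 CPM (SD, n = 8), the lectin Siglecf 82.0 ± 6.05 CPM and the scavenger receptor Marco 144 ± 49.1 CPM. Of 12 markers of C1q interstitial macrophages, Folr2 and Cd209f were at 0 in all 8 tumours, and the list, in which the rule capped 3 genes (C1qa, C1qb and C1qc), summed to 54.4 to 305 CPM. In the library 2 tumours this sum was higher in members than in the other alveolar macrophages (137 against 84.3 and 190 against 163 CPM in mA1, 250 against 122 and 305 against 187 CPM in Con). It was lower in members in every library 1 tumour of both groups. Of 14 T and NK cell markers 12 averaged under 5 CPM, and the list summed to 6.41 to 102 CPM. RNA of other cell types was high in single tumours. Markers of B and plasma cells summed to 5164 CPM in members of the hashtag 2 tumour of mA1 library 1 and to 1706 CPM in those of the hashtag 1 tumour of Con library 2, against 38.2 to 434 CPM in the other 6, and the other alveolar macrophages of those 2 tumours had 135 and 1119 CPM. Neutrophil markers summed to 605 CPM in members of the hashtag 2 tumour of Con library 1, against 21.1 to 57.0 CPM in the other 7 tumours. The other alveolar macrophages of that tumour had 313 CPM, and those of the hashtag 1 tumour of Con library 2 had 195 CPM, against 57.0 CPM in its members. Red cell markers summed to 204 and 163 CPM in members of mA1 library 1, 5.65 and 4.52 CPM in mA1 library 2, and 7.73 to 14.7 CPM in the Con tumours, while the other alveolar macrophages of mA1 library 1 had 6.92 and 148 CPM. The part of this RNA in the results below was not tested.

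Some facts of the libraries touch the comparisons below. The libraries held 48319272 to 74996867 UMIs in 4939 to 10168 barcodes, and the members of a tumour summed to 1462976 to 5918589 UMIs in 58 to 279 cells. Between libraries 1046 barcodes were shared, 10 of them by members. Both tumours of Con library 2 expressed Xist in the members (1525 and 1452 CPM) with Ddx3y at 0, whereas the other 6 tumours had Xist at 0.641 CPM or less and Ddx3y at 32.6 to 51.4 CPM, so that library differs from the rest in sex. A library holds tumours of 1 group only, so a library's own deviation and the group's cannot be told apart within it. Tumours entered the tests with 1040 members that carried exactly 1 hashtag and no Scrublet call.

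The proliferating share of the alveolar macrophages did not differ between the groups beyond the spread between tumours. It was 15.9%, 18.1%, 12.4% and 16.8% in the mA1 tumours, and 12%, 13.8%, 17.0% and 16.8% in the Con tumours. The ranges overlapped almost entirely, with means of 15.8 ± 2.45% in mA1 and 14.9 ± 2.44% in Con tumours (SD, n = 4 each; exact two-sided permutation test p = 0.686, adjusted over 3 shares 0.743). With the alveolar macrophages of at least 5000 UMIs thinned to 5000, the means were 12.2 ± 1.70% and 12.8 ± 2.12%, in the opposite direction. Left out there as too shallow were 135 alveolar macrophages of the mA1 and 200 of the Con tumours, and the part of this loss was not tested.

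Counted against all kept cells, the members were more frequent in the mA1 tumours, but the difference did not pass after adjustment. They made up 5.38%, 6.53%, 5.45% and 6.50% of the kept cells of the mA1 tumours, and 4.50%, 4.43%, 2.43% and 3.53% of those of the Con tumours. The groups did not overlap, and the means were 5.97 ± 0.637% in mA1 and 3.72 ± 0.968% in Con tumours (SD, n = 4 each). An exact permutation test, two-sided, gave p = 0.0286, which 4 against 4 tumours cannot go below, and 0.0857 adjusted over the 3 shares. It took the tumours of a library as separate samples. The share was also taken over kept cells with 1000 or more UMIs only. There the alveolar macrophages, called at full depth, were thinned to 1000 UMIs before the 5 genes were counted. The members then made up 1.32% in mA1 and 0.968% in Con tumours, a difference of 0.353 percentage points (exact permutation test, p = 0.257). All alveolar macrophages made up 33.8%, 36.1%, 44.0% and 38.7% of the kept cells in mA1 tumours, against 37.6%, 32.1%, 14.3% and 21.0% in Con tumours, with the low values in both tumours of Con library 2. Without Con library 2 the difference in the members' share was 1.5 percentage points, against 2.25 with it.

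**Figure D2:**
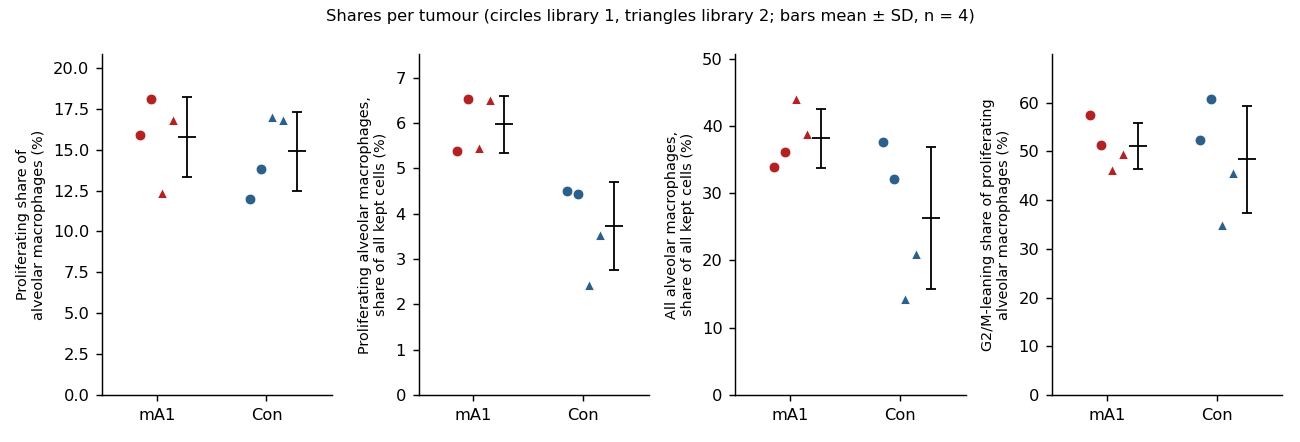
Shares in percent (y axes) per tumour, mA1 left and Con right, circles for library 1 and triangles for library 2, bars for mean ± SD (n = 4). The members' share of alveolar macrophages overlaps between groups, and their share of all kept cells does not (5.38% to 6.53% in mA1, 2.43% to 4.50% in Con).

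What the members expressed beyond the 5 genes was read from per-tumour log2 ratios of members over the other alveolar macrophages of the same tumour, with 1 CPM added to both. Since the rule chose the cells by genes of this contrast, the ratios are a description with no test. Of 7647 genes at 10 CPM or more outside the rule, 366 (4.79%) were at least 2-fold higher in the members in 8 of 8 tumours and 2 (0.0262%) at least 2-fold lower, and the median ratio of all these genes was 0.07. Without a bound on size, 28.7% of them were higher in 8 of 8 tumours and 14.6% lower, which is the background for the counts of list members below.

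The mitotic apparatus stood highest. Of the 5 genes of the rule, Mki67, Top2a, Birc5 and Cdk1 had higher mean levels in the members that leaned to G2/M (below). The rule may thus tilt the order of the lists, and its part was not tested. All 25 genes of the spindle, mitotic kinases and cytokinesis list were at least 2-fold higher in every tumour, with a median log2 ratio of 4.99, as were all 17 kinetochore and spindle checkpoint genes, with a median of 4.96. Nusap1, which bundles spindle microtubules, had the highest ratio of all genes named by rule, 6.97. Its levels in members were 233, 219, 286 and 280 CPM in mA1 and 276, 269, 202 and 211 CPM in Con tumours, and in the other alveolar macrophages 0.603 to 1.41 CPM. Hmmr, a spindle assembly factor, averaged 125 ± 16.7 CPM in members and 0.487 ± 0.266 CPM in other alveolar macrophages (SD, n = 8). Cenpf, a kinetochore protein, averaged 226 ± 35.2 and 2.55 ± 1.28 CPM, and Prc1, which organises the central spindle, 204 ± 23.6 and 1.88 ± 0.344 CPM, members before others. Kif11, the kinesin that separates the spindle poles, Aspm, Plk1, Bub1, Knl1 and Kif15 had ratios of 5.65 to 5.94. The ubiquitin ligase side of mitosis followed, with Ube2c at 300 ± 54.1 CPM in members and 4.28 ± 1.19 CPM in others and Cdc20 at a ratio of 5.44. Pttg1, securin, was the member of that list with nearly equal levels, 42.4 and 40.4 CPM.

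Replication genes were higher as a block. All 16 origin licensing and firing genes at 10 CPM or more and all 20 DNA synthesis and repair genes passed 2-fold in every tumour, with medians of 2.62 and 2.64. Mcm7, a subunit of the replicative helicase, averaged 149 CPM in members and 15.2 in others, and Pcna, the polymerase clamp, 528 and 113 CPM. Rrm2, the regulated subunit of ribonucleotide reductase, had the largest ratio of the nucleotide synthesis list, 6.03, with 188 ± 27.5 and 1.64 ± 0.383 CPM, and Tk1, thymidine kinase, followed with 111 and 2.30 CPM. Mthfd1, a folate enzyme, was the one member of that list below 2-fold, at 28.6 and 18.9 CPM. Esco2, which acetylates cohesin in S phase, averaged 84.6 ± 13.9 and 0.241 ± 0.147 CPM. The chromatin list had a median of 3.02, with Stmn1, a microtubule regulator, at 1072 and 47.2 CPM and the histone variant gene H2afz at 2398 and 662 CPM.

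**Figure D3:**
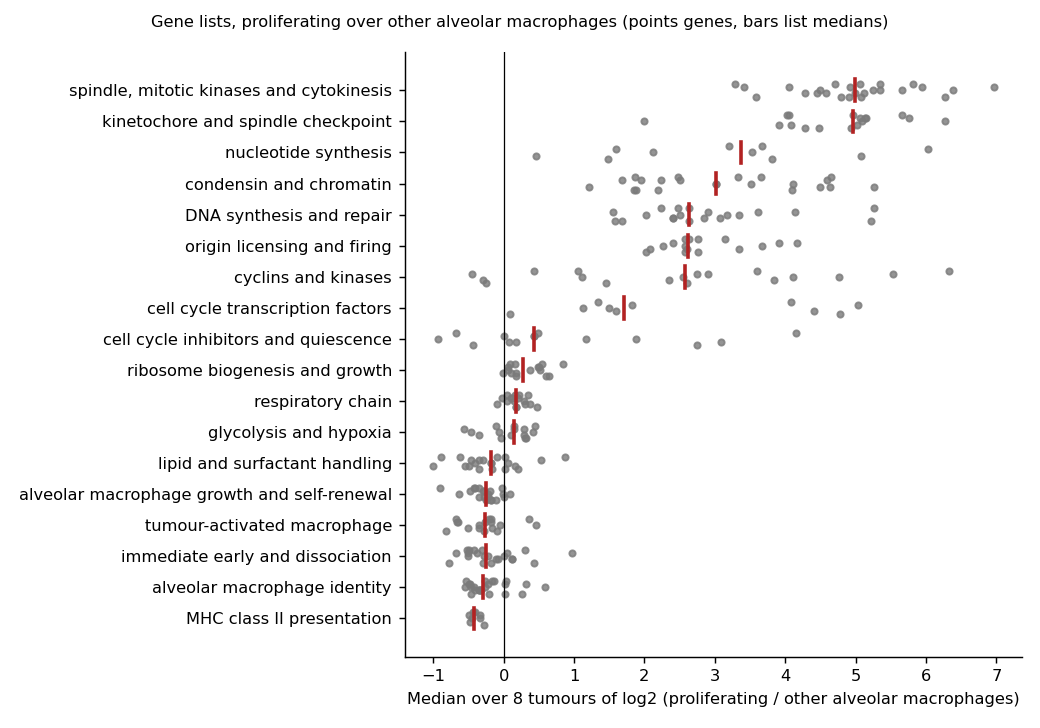
Median over 8 tumours of the log2 ratio of proliferating over other alveolar macrophages (x axis), 1 point per gene at 10 CPM or more and a bar at the median of each list (y axis). The spindle and kinetochore lists have medians of 4.99 and 4.96, licensing and DNA synthesis 2.62 and 2.64, and the macrophage identity list -0.30.

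Since the mitotic genes moved together, the promoters of the 5 genes of the rule and of Ccnb1 are shown, to let the sequences be read beside the levels. They are the 100 bases before the RefSeq start (GRCm38.p6), on the strand of the gene, searched on both strands for the cell cycle gene homology region (CHR, TTTGAA or TTTAAA), the CCAAT box (CCAAT) and E2F letters (TTTCCCGC or TTTGGCGC). Capitals mark the matches, and no match overlaps another. The windows lie at chr7:135716380-135716479 (Mki67, minus strand), chr11:99024190-99024289 (Top2a, minus), chr11:117849137-117849236 (Birc5, plus), chr9:65890223-65890322 (Pclaf, plus), chr10:69352913-69353012 (Cdk1, minus) and chr13:100786487-100786586 (Ccnb1, minus).
Mki67: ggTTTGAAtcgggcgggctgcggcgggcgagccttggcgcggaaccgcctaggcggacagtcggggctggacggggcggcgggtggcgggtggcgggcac
Top2a: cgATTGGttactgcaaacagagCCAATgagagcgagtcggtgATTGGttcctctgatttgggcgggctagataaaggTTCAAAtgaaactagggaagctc
Birc5: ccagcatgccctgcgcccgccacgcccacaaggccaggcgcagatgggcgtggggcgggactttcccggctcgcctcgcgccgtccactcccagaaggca
Pclaf: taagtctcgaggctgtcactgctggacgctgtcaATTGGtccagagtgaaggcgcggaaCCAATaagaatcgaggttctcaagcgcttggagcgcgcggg
Cdk1: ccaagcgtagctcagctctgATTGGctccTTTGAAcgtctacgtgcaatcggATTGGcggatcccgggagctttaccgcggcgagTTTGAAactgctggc
Ccnb1: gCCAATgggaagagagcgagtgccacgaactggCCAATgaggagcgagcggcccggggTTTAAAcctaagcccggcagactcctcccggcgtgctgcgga

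Top2a, Cdk1 and Ccnb1 held both CHR and CCAAT letters, Pclaf held CCAAT letters, Mki67 CHR letters, and Birc5 none of these in this window. Of 49 windows of 44 genes (of 49) on the kinetochore, spindle and anaphase-promoting complex lists, 57.1% held a CCAAT match, 18.4% a CHR match and 16.3% both. Of 44 windows of 40 genes (of 50) on the licensing, synthesis and nucleotide lists, 52.3% held a CCAAT match, 4.55% a CHR match and 0% both. Over all 32851 RefSeq windows of this length the shares were 18.9%, 9.71% and 1.77%. E2F letters stood in 4.08% of the mitotic, 6.82% of the replication and 0.584% of all windows. These matches describe letters and were not tested as sites.

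Regulators of the cycle split by type. Ccna2 and Ccnb1, the cyclins of S phase and mitosis, averaged 148 ± 18.0 and 109 ± 17.4 CPM in members, against 0.860 ± 0.445 and 1.2 ± 0.539 CPM in the other alveolar macrophages. Ccne1 and Ccne2, the cyclins of S phase entry, averaged 31.0 and 45.3 CPM in members and 2.78 and 1.68 CPM in others. The D cyclins, which answer growth signals, showed no such difference. Ccnd2 was lower in members in 8 of 8 tumours, 235 ± 16.2 against 293 ± 33.4 CPM, Ccnd3 was higher in 8 of 8, 81.8 ± 11.1 against 60.8 ± 10.7 CPM, and Ccnd1 stood at 22.6 ± 9.72 and 24.9 ± 12.9 CPM. Their partner Cdk4 was higher in members in 8 of 8 tumours (102 and 49.2 CPM) and Cdk6 lower in 8 of 8 (51.1 and 69.1 CPM). Among transcription factors, Foxm1 and Mybl2, which drive mitotic genes, had ratios of 5.04 and 4.08, E2f7 and E2f8, repressors of the E2F family, 4.41 and 4.77, and the activator E2f1 1.34. Myc differed little, at 28.5 ± 6.97 and 26.3 ± 5.31 CPM, higher in members in 6 of 8 tumours.

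Of 17 genes that restrain the cycle, 14 were at 10 CPM or more, of which 7 were higher and 3 lower in members in 8 of 8 tumours. Cdkn2c and Cdkn2d, inhibitors of the D cyclin kinases that rise in cycling cells, averaged 32.2 and 61.6 CPM in members and 2.65 and 8.40 CPM in others. Cdkn1a, the p21 inhibitor and a p53 target, averaged 108 ± 29.3 and 63.6 ± 23.8 CPM. The 3 lower genes were Cdkn2a, Btg1 and Btg2. Btg1 and Btg2, antiproliferative factors, averaged 428 and 124 CPM in members and 579 and 204 CPM in others. Cdkn2a, which encodes p16Ink4a and p19Arf, averaged 38.9 ± 3.24 CPM in members and 81.4 ± 27.0 CPM in others (ratio -0.93), and the counts do not separate the transcripts of these proteins.

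Below the cycle genes, the lowest ratios belonged to a small mixed group. Hist1h2bc, a histone gene that also gives polyadenylated RNA in resting cells, had 58.6 ± 12.4 CPM in members and 189 ± 23.1 CPM in others, while S phase histones such as Hist1h2ap (306 and 7.36 CPM) and Hist1h1b (133 and 5.72 CPM) were higher; most histone mRNA of S phase lacks a poly(A) tail, so this polyA library captures it in part. Mxd4, a partner of Max that antagonises Myc, averaged 28 ± 1.83 and 66.0 ± 6.06 CPM. Slpi, a secreted protease inhibitor, averaged 402 ± 120 and 822 ± 196 CPM, and Samhd1, which degrades deoxynucleotides, 118 ± 15.7 and 201 ± 15.1 CPM. Il1b, the inflammatory cytokine, was lower in members in 8 of 8 tumours, with 61.8, 130, 64.3 and 58.4 CPM in mA1 and 34.0, 126, 142 and 184 CPM in Con tumours. The other alveolar macrophages had 136, 211, 76.0 and 117 CPM of Il1b in mA1 tumours and 119, 270, 153 and 195 CPM in Con tumours, so the ratio ranged from -1.78 to -0.09. Ccl17, a chemokine for T cells, stood at 112 to 480 CPM in members and 318 to 835 CPM in others.

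The macrophage program was kept at somewhat lower relative levels. Of 24 identity genes at 10 CPM or more, 12 were lower and 1 higher in members in 8 of 8 tumours, with a median ratio of -0.30 and none at 2-fold. Lpl, a lipase, averaged 1551 CPM in members and 2146 in others, Siglecf 82.0 and 110, Fabp5, a fatty acid carrier, 1211 and 1508, and Pparg 104 and 117 CPM. Marco went the other way, 144 and 103 CPM, higher in 7 of 8 tumours. Of 21 growth and self-renewal genes, 12 were lower in 8 of 8 tumours, with a median of -0.25. Both chains of the GM-CSF receptor were among them, Csf2ra at 260 ± 20.5 and 346 ± 24.6 CPM and Csf2rb at 219 and 251 CPM, as was the M-CSF receptor Csf1r at 107 ± 6.46 and 136 ± 9.27 CPM. Cebpa, a myeloid transcription factor, averaged 77.4 and 118 CPM. The 8 MHC class II genes at 10 CPM or more had a median of -0.42, with Cd74, the invariant chain, at 3761 and 4879 CPM. CPM is a share of the cell's RNA, and fewer copies per cell cannot be told from more of other RNA by it.

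Ribosome biogenesis and respiratory chain genes were slightly higher in members, and glycolysis genes only without matching for depth. Of 16 ribosome biogenesis genes 9 were higher in 8 of 8 tumours (median 0.28), such as Ncl, nucleolin, at 520 and 364 CPM and Nop58 at 117 and 63.2 CPM. Of 17 respiratory chain genes 11 were higher in 8 of 8 (median 0.17), and of 15 glycolysis genes 8 (median 0.14), with Gapdh at 2410 and 2001 CPM. With cells of equal UMI range the medians were 0.27 for ribosome biogenesis, 0.12 for the respiratory chain and -0.02 for glycolysis, where 6 of 15 genes, against 9 without matching, were above 0 and Gapdh was at 0.09. Hsp90aa1, a chaperone, averaged 729 and 355 CPM. Of the genes of tumour-activated macrophages, Spp1, osteopontin, was higher in members in 8 of 8 tumours (1108 and 825 CPM), as was the protease Ctsk (1162 and 899 CPM). Their ratios under the same matching were 0.13 and 0.11, against 0.46 and 0.37 without matching. The whole list had a median of -0.26, and of -0.39 under the same matching. Of its 17 genes at 10 CPM or more, 2 were higher and 6 lower in members in 8 of 8 tumours.

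Malat1, the RNA the guides target in tumour cells, was lower in the members than in the other alveolar macrophages of every tumour. It had 7865, 6527, 8481 and 8726 CPM in members of the mA1 tumours and 7967, 7438, 8161 and 7440 CPM in members of the Con tumours. The other alveolar macrophages had 10238 to 16066 CPM, above all the members' values, and the median ratio was -0.73 (range -0.92 to -0.65). With cells of equal UMI range it was -0.64. Neat1, a paraspeckle RNA from the neighbouring locus, averaged 558 ± 87.2 CPM in members and 714 ± 80.8 CPM in others, with a median ratio of -0.39. Between the guide groups Malat1 in members did not differ by the test (log2 fold change 0.05 ± 0.08, SE; edgeR adjusted p = 0.922).

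The members differed in their S phase and G2/M levels. Thinned to 5000 UMIs each, 1111 members could be placed (15 were shallower), with 0 to 53 UMIs of the S phase list, median 16.0, and 2 to 107 UMIs of the G2/M list, median 33.0. Set against the mean of each list, 573 leaned to G2/M and 538 to S, a split that the centring on these same cells largely fixes and that is no measure of the balance of phases, and 132 lay near the line, with the 2 in a ratio of at most 5 to 4, so the classes are ranges and not types. The genes of the rule, which are on neither list, differed between these classes in a set order. Birc5, survivin, was higher in G2/M-leaning members in 8 of 8 tumours (486 and 210 CPM, median log2 ratio 1.2), as were Mki67 (716 and 446 CPM, 0.71) and Cdk1 (245 and 165 CPM, 0.56), and Top2a in 7 of 8 (633 and 474 CPM, 0.47). Pclaf, a PCNA-binding factor, was lower in 8 of 8 (510 and 650 CPM, -0.39). Ccne1, Mybl2, E2f1 and Cdt1, the licensing factor, were lower in G2/M-leaning members in 8 of 8 tumours, with ratios of -2.77, -1.94, -1.72 and -1.59, while Ccnb1 and Plk1 were higher with 1.76 and 1.63. Chil3 stood at 9617 and 10994 CPM, lower in 7 of 8 tumours.

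**Figure D4:**
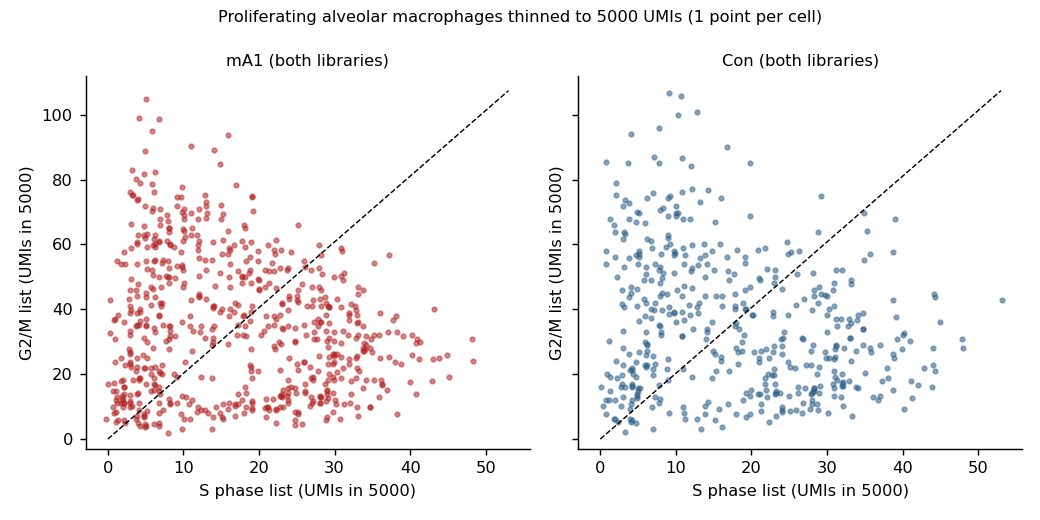
UMIs of the S phase list (x axis) and of the G2/M list (y axis) in 5000 UMIs per cell, 1 point per member, mA1 left and Con right, with the dashed line where both equal the same multiple of their mean. The S list ranges over 0 to 53 and the G2/M list over 2 to 107 UMIs; the line is set by the means, so the split of points by it is not a result.

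The G2/M-leaning share did not differ between the groups. It was 57.6%, 51.3%, 46.2% and 49.5% in the mA1 tumours and 52.3%, 60.8%, 34.9% and 45.6% in the Con tumours, with means of 51.1 ± 4.79% and 48.4 ± 11% (SD, n = 4 each; exact two-sided permutation test p = 0.743, adjusted 0.743). The lowest values of each group came from its library 2.

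Of all 1468 kept cells with at least 3 of the 5 genes, the members were 76.7%, and the other 342 were cells outside the alveolar macrophage rule. The D cyclins stood apart between these classes in each library. Ccnd1 was at 18.2 and 15.8 CPM in members of the mA1 libraries and 23.4 and 26.5 CPM in members of the Con libraries, against 321 and 181 CPM (mA1) and 187 and 238 CPM (Con) in the other cycling cells. Ccnd2 was at 237, 261, 236 and 221 CPM in members, in the same order of libraries, and at 73.7, 84.4, 99.8 and 114 CPM in the other cycling cells. Ccnd3 differed less, with 71.9 to 99.6 CPM in members and 85.8 to 133 CPM in the others. The other cycling cells are a mixture that held epithelial, lymphoid and C1q macrophage RNA (Epcam at 181 to 342, Cd3e at 48.6 to 84.8 and C1qa at 548 to 1114 CPM), so the values describe the mixture, and no test was made.

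Within the members, the guide groups were compared gene by gene over the 4 and 4 tumours with edgeR's quasi-likelihood test. No gene passed: 0 of 9500 genes tested (0.0%) had a Benjamini-Hochberg adjusted p under 0.05, 690 (7.26%) had an unadjusted p under 0.05, and 430 (4.53%) had groups that did not overlap. DESeq2 called 6 genes on the same counts, Gstm1, Ear6 and Slc39a2 higher and Sftpb, Clu and Emb lower in mA1. Leaving out Con library 1, which compares mA1 with the library of the other sex alone, gave 237 calls, and leaving out Con library 2 gave 0; without mA1 library 1 and 2 the counts were 32 and 11.

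The 10 genes with the smallest p, none of which passed, included Gstm1, Bhlhe41, Fnip2 and Vwf with higher values in mA1 tumours and surfactant genes with lower ones. Gstm1, a glutathione transferase, had 269, 252, 268 and 212 CPM in mA1 tumours and 196, 179, 169 and 157 CPM in Con tumours (log2 fold change 0.53 ± 0.09, SE; adjusted p = 0.105 by edgeR). The groups did not overlap, and the lowest mA1 value came from library 2. Bhlhe41, a transcription factor tied to self-renewal of mouse alveolar macrophages, had 135, 129, 117 and 92.7 CPM in mA1 and 85.2, 88.5, 78.3 and 79.3 CPM in Con tumours (0.53 ± 0.11, edgeR adjusted p = 0.120). Fnip2, a partner of folliculin in nutrient sensing, had 49.8, 52.4, 67.3 and 51.6 CPM in mA1 and 34.0, 34.8, 41.1 and 30.8 CPM in Con tumours (0.66 ± 0.13; adjusted p = 0.120). Vwf, best known from endothelium, had 23.7 to 26.1 CPM in mA1 and 14.4 to 15.4 CPM in Con tumours (0.75 ± 0.14), while the other endothelial and fibroblast markers averaged under 5 CPM.

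Sftpb and Sftpa1, surfactant proteins of alveolar type 2 cells, and Clu, clusterin, had lower values in the mA1 tumours. Sftpb had 2.62, 2.87, 5.65 and 3.39 CPM in mA1 and 11.5, 14.4, 9.18 and 9.57 CPM in Con tumours (-1.70 ± 0.29; adjusted p = 0.105). Clu had 11.6, 13.5, 9.99 and 7.54 CPM in mA1 and 31.4, 24.6, 48.8 and 56.1 CPM in Con tumours (-1.79 ± 0.27; adjusted p = 0.115). Sftpa1 had 1.5 to 3.04 CPM in mA1 and 5.24 to 8.89 CPM in Con tumours (-1.65 ± 0.33). Of the 14 epithelial and tumour markers, in which the rule capped 3 genes (Krt7, Krt8 and Krt18), 8 could be tested; 0 were called, 7 had lower values in mA1 and 5 an unadjusted p under 0.05. The list had a summed level of 141 to 188 CPM in mA1 and 237 to 289 CPM in Con tumours. On that list 8 of the 14 averaged under 5 CPM, and none was at 0 in every tumour. The same genes had similar values in the other alveolar macrophages, such as Sftpb at 3.62 to 4.69 CPM in mA1 and 10.7 to 15 CPM in Con tumours. The part of epithelial RNA in these differences was not tested.

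Per1, a clock gene, had 6.95 to 9.37 CPM in mA1 and 11.5 to 23.2 CPM in Con tumours (-1.11 ± 0.22), highest in Con library 2. Emb, embigin, had 46.1 to 75.4 CPM in mA1 and 87.0 to 111 CPM in Con tumours (-0.68 ± 0.13), and Clec2d, a lectin, 42.2 to 55.4 and 62.9 to 80.7 CPM (-0.54 ± 0.11), mA1 before Con; the adjusted p of Per1, Emb, Clec2d, Vwf and Sftpa1 was 0.120.

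**Figure D5:**
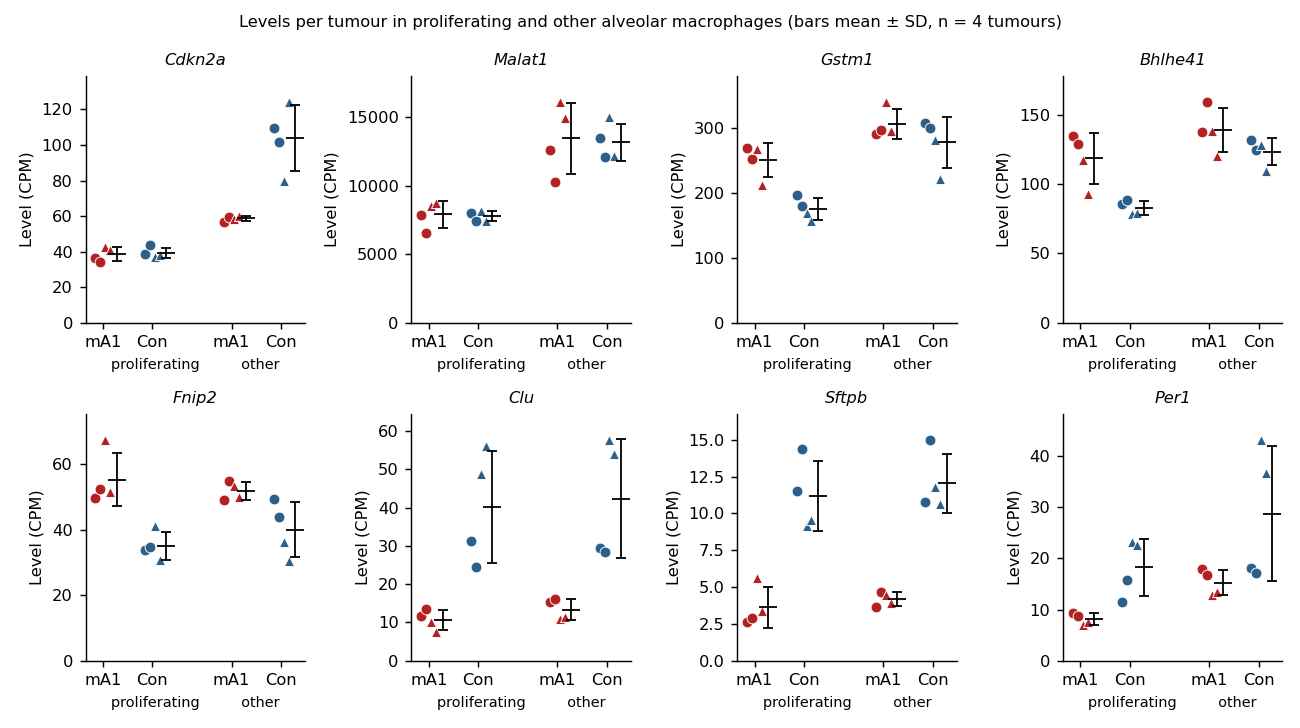
CPM (y axes) of 8 genes per tumour, in proliferating (left pair) and other alveolar macrophages (right pair), mA1 red and left of Con blue, circles for library 1, triangles for library 2, bars for mean ± SD (n = 4). Cdkn2a overlaps between groups in members and not in the other alveolar macrophages, where it is 56.9 to 60.3 CPM in mA1 and 79.8 to 124 CPM in Con.

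The gene lists had 0 calls as well, and their medians are read beside that of all 9500 genes, -0.0046, with 4630 above 0. The S phase list had a median of -0.10 and the G2/M list of 0.07. Over the alternatives these medians changed sign, from -0.27 to 0.10 and from -0.08 to 0.23. Of the 43 S phase genes, 3 had an unadjusted edgeR p under 0.05, all with lower values in mA1. Of the 47 G2/M genes, 3 had one with higher values in mA1 and 1 with lower values. Over all 9500 genes the share with an unadjusted p under 0.05 was 7.26%. Of 24 identity genes, 6 had an unadjusted p under 0.05, all with higher values in mA1, and the median was 0.10. Among them Slc39a2, a zinc transporter, averaged 124 ± 33.7 CPM in mA1 and 63.2 ± 5.14 CPM in Con tumours (0.97 ± 0.18; adjusted p = 0.224), and Ear6, an eosinophil-associated RNase, had 38.2 to 63.0 CPM in mA1 and 12.2 to 30.6 CPM in Con tumours (1.13 ± 0.31; adjusted p = 0.480). The 21 growth and self-renewal genes tested had a median of -0.0038, with 10 above 0. Of these 21, 3 had an unadjusted edgeR p under 0.05 with higher values in mA1 and 2 with lower values. Of 17 ribosome biogenesis genes 3, Nop58, Nolc1 and Dkc1, had an unadjusted p under 0.05, with log2 fold changes of -0.31, -0.37 and -0.37. Of 22 immediate early and dissociation genes 21 had lower values in mA1, with a median of -0.34 and Jun at -0.45 ± 0.12 (adjusted p = 0.377). The list summed to 3056 to 3860 CPM in mA1 and 3374 to 5432 CPM in Con tumours, and C1qa was at 1.5 to 5.27 CPM in mA1 tumours, 3.85 and 8.91 CPM in Con library 1 and 32.4 and 34.2 CPM in Con library 2.

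Whether the guide groups differed in another way among the members than among the other alveolar macrophages was tested as an interaction, with the tumour as a block. Of 11015 genes 1 passed (0.00908%), Cdkn2a. In members it had 36.3, 34.0, 42.6 and 41.1 CPM in mA1 and 38.5, 43.5, 37.2 and 38.3 CPM in Con tumours, overlapping (-0.04 ± 0.12; adjusted p = 0.966). In the other alveolar macrophages it had 56.9, 59.4, 58.6 and 60.3 CPM in mA1 and 110, 102, 79.8 and 124 CPM in Con tumours, without overlap. The difference between the log2 fold changes was 0.73 ± 0.13 (SE; edgeR adjusted p = 0.0312), with lower values in mA1 among the cells outside the rule. Over 18 alternatives its size was 0.62 to 0.87 and its adjusted p 1.17e-05 to 0.480, past 0.05 in 11; the call was lost on leaving out either mA1 library 2 (0.480), Con library 1 (0.0935), or 1 of 5 tumours (0.0994 to 0.241). In the other cycling cells Cdkn2a stood at 65.2 and 36.1 CPM in the mA1 libraries and 145 and 97.1 CPM in the Con libraries. These are the mixture described above, with 81 and 46 cells in the mA1 and 113 and 102 in the Con libraries. A difference in the mixture cannot be told there from a difference in Cdkn2a, and no test was made.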

How the data were processed

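UMI counts per gene and barcode were deposited by the authors, a matrix for each library; the submitters' processing notes name Cell Ranger 6.0.1 and mm10, and the counts are raw, with 32286 gene features and 2 hashtags in use. No per-sample column was left aside. The members, gene lists and tests were chosen with earlier results of these data known.

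Hashtags were called per library by a Gaussian mixture of 2 components on log10 counts (scikit-learn 1.9.0; fitted on cells with at least 10 hashtag counts, posterior 0.5), and cells with both were left out of tests as doublets. A doublet caller, Scrublet in scanpy 1.11.5 (0.008 expected per 1000 cells), marked 0 cells in Con library 2, where it was taken not to have worked. UMI counts were summed per tumour and state and tested with edgeR 4.0.16 in R 4.3.3 (TMM, filterByExpr, robust quasi-likelihood, two-sided), with a Benjamini-Hochberg adjusted p under 0.05 as a call; the scripts were tested on simulated data. DESeq2 1.42.0, limma 3.58.1, other size factors, no low-count filter, other hashtag calls, a library number block and leaving out tumours or libraries were alternatives. Shares were compared by exact permutation of the 8 tumours (70 arrangements). Named genes were all those called, the 10 smallest p between groups, the 15 highest and 15 lowest state ratios (50 CPM or more in the higher state), and the 4 most abundant of each list; others named were chosen after their values were seen. Gene levels of same-numbered libraries did not deviate together (r = -0.0087). With 2 libraries per group this is a single value and cannot decide whether the numbers pair them. The main tests did not pair them. Deviations from the group mean correlated at -0.058 on average between tumours of the same library. Between tumours of the same group in the other library the mean was -0.468. The limma consensus correlation within a library was 0.166. The main tests took the tumours of a library as separate samples, so their p-values do not allow for likeness within a library. Promoter sequences are RefSeq's.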

Additional observations from a re-analysis of the deposited data

Results flagged for a closer look

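The mA1 against Con contrast of Cdkn2a differed between proliferating and other alveolar macrophages by 0.73 on the log2 scale, by the interaction test (edgeR adjusted p = 0.0312). Among 38 groups of 4 tumours examined, 3 had a tumour far from the others, where chance gives about 1 in 20. Fnip2 in members was at 67.3 CPM in the hashtag 1 tumour of mA1 library 2, against 49.8 to 52.4 CPM in the other mA1 tumours. Emb was at 111 CPM in the hashtag 2 tumour of Con library 2, against 87.0 to 89.7 CPM in the other Con tumours. Clec2d was at 62.9 CPM in the hashtag 2 tumour of Con library 1, against 77.8 to 80.7 CPM in the other Con tumours.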

How the results depend on the processing

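Between groups, 0 genes were called with libraries as samples, with RLE size factors, with Scrublet calls kept and with limma (library as a random block). The count was 1 with hashtags by 80% of counts, 6 with DESeq2, 42 with no low-count filter, and 12 with the replicate block. Whether libraries of the same number share more than the number is not known. Leaving out a tumour gave 0 to 4 calls and leaving out a library 0 to 237. For the interaction the counts were 4 with hashtags by 80%, 6 with libraries as samples and 30 with no filter, 0 to 13 without a tumour and 0 to 18 without a library. The difference in the members' share of alveolar macrophages (0.905 percentage points) was -0.610 with cells thinned to 5000 UMIs, -0.0742 to 2.04 without a tumour and -1.10 to 2.91 without a library. The share of kept cells differed by 2.07 points with libraries as samples (smallest possible p 0.333) and by 2.25 under the replicate block (exact p = 0.0556, the smallest of 36 arrangements). With alveolar macrophages thinned to 1000 UMIs, over kept cells of at least that depth, it differed by 0.353 (exact permutation p = 0.257). The difference was 1.82 to 2.51 without a tumour and 1.5 to 2.99 without a library. The G2/M-leaning difference of 2.74 points was -1.77 to 6.88 without a tumour and -5.41 to 10.9 without a library. The log2 fold change of Malat1 in members was -0.10 without mA1 library 2 and 0.19 without mA1 library 1, and that of Cdkn2a in members -0.18 to 0.11 over the alternatives, reaching 0.03 and 0.04 without a tumour and 0.05 and 0.11 without a library. The 366 genes at least 2-fold higher in members became 341 with depth matched and 378 against alveolar macrophages with 0 of the 5 genes. They became 319 with 5 CPM added and 373 to 390 without a library. These alternatives were chosen after seeing the data. Adding 5 CPM brings every ratio nearer to no difference, so that count could not rise. Without a library the 2-fold bound is asked of fewer tumours, so a higher count was largely set in advance. The causes of the other changes were not tested. Lone libraries were assumed to vary like the rest, and genes near 5 CPM rest on few UMIs.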
